A study of Mus musculus with 6 samples.

Results

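Abca5, Abca6, Abca8a, Abca8b and Abca9 are 5 neighbouring mouse genes for A-class ABC transporters, out of 41126 genes in the all-gene table of this RNA-seq study of cultured dermal fibroblasts. They were listed by name and position: they follow each other on chromosome 11 with no other protein-coding gene between them. The set was put together with the difference between the groups already known, so the values of these 5 genes are a description and carry no test. All 5 passed the filter on low counts, which kept 15462 genes.

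The study asked which coding and non-coding RNAs respond to stabilized β-catenin in dermal fibroblasts, the collagen-producing cells of the skin. The 3 GOF (gain of function) libraries came from cultures given Adenovirus-Cre and labelled Ctnnb1{delta}ex3/+, in which Cre removes exon 3 of Ctnnb1 and with it the sites that mark β-catenin for degradation. The 3 Control libraries came from cultures given Adenovirus-GFP and labelled +/+, although the study's methods have them carry the same unrecombined allele. The treatment label gives a multiplicity of infection of 366 to 500 for 6 h and names the Cre virus for all 6 cultures, while the genotype and source labels give GFP virus for Control. The study's methods give 366 to 500 for Adenovirus-Cre and 366 for Adenovirus-GFP, so the dose may differ between the groups too. By the study's account RNA was taken days after infection, not at 6 h. All cultures were of CD1, C57Bl6 background and postnatal day 4, were grown from whole ventral trunk skin without a sort, and came from 4 mice. The mice labelled 9845 and 9852 gave 1 culture to each group. The virus differs between the groups, so the effect of Cre virus and that of stabilized β-catenin cannot be told apart. Apart from the mouse, no label says how far the cultures were separate, and every p-value below measures only the spread between these 6 libraries.

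A library held 35980831 to 42834467 fragments (read pairs) assigned to genes. Axin2, a direct target of β-catenin, measured 0.144, 0.136 and 0.177 FPKM in Control replicates 0, 1 and 2 and 19.2, 14.4 and 18.7 in GOF replicates 0, 1 and 2, as the labels would have it. FPKM is a level in fragments scaled by transcript length and library size. Ctnnb1 itself, counted over the whole gene, differed by a log2 fold change of -0.05 (edgeR quasi-likelihood test, adjusted p = 0.844), which does not check the deletion of an exon. All 10 dermal fibroblast markers were measured, with a summed level of 3179 to 4062 FPKM in Control and 2576 to 3150 in GOF. Among them edgeR called Dcn 3.19-fold lower (adjusted p = 0.00584) and Col1a2 2.26-fold lower (adjusted p = 0.0375), the latter call being lost under 6 of 14 alternatives, while Vim was 1.63-fold higher and not called (adjusted p = 0.028). Markers of keratinocytes summed to 0.388 to 0.485 FPKM in Control and 0.495 to 0.562 in GOF, with 4 of the 6 under 0.1 in every library. Adipocyte markers summed to 7.18 to 8.95 FPKM in Control and 1.80 to 3.17 in GOF, nearly all of it Fabp4, since the other 4 of the 5 stayed under 0.1 and Lep was at 0 in every library. Fabp4 was called 3.45-fold lower (edgeR, adjusted p = 0.00532). Macrophage markers summed to 2.51 to 3.44 FPKM in Control and 4.38 to 7.62 in GOF, and of the 5 only Csf1r was called (1.32 ± 0.234 and 3.89 ± 0.787 FPKM, SD, n = 3 each). Skeletal muscle markers summed to 22.7 to 26.6 and 137 to 171 FPKM, nearly all Acta1, with Myod1, Myf5 and Ckm under 0.1 throughout. Acta1 was called 5.76-fold higher (edgeR, adjusted p = 0.000105). The summed levels of endothelial, Schwann cell and pericyte markers overlapped between the groups, although among the endothelial ones edgeR called Kdr 3.40-fold higher (adjusted p = 0.011) and Tek 4.83-fold lower (adjusted p = 0.019). Kdr lost its call with limma on log2(FPKM + 1), and Tek lost its call without GOF replicate 0. The shifts in the other 5 lists went along with the differences described here, and their part in them was not tested. In bulk RNA, fewer cells of a type and less RNA per cell cannot be told apart.

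ABC transporters are membrane proteins that use ATP to move molecules across or within membranes. Those of the A class are large proteins with a pair of membrane-spanning domains and a pair of ATP-binding domains, and several of them carry lipids: Abca1 hands cholesterol and phospholipid to apolipoprotein A-I, Abca3 loads surfactant lipid in the lung and Abca4 clears retinoids in the eye. The chromosome 11 genes form a branch of their own that arose by tandem duplication. Abca8a and Abca8b are the mouse counterparts of human ABCA8, which has been linked to cholesterol efflux, Abca5 sits in lysosomes and late endosomes, and Abca6 and Abca9 are the least studied of the branch and respond to cholesterol in macrophages.

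On the assembly GRCm38.p6 (mm10) all 5 genes lie on the minus strand of chromosome 11, within 405.527 kb. By rising coordinate the order is Abca8b (109932190 to 109995845), Abca8a (110025634 to 110095978), Abca9 (110100749 to 110168196), Abca6 (110176820 to 110251776) and Abca5 (110269369 to 110337716). Each spans 63.7 to 75.0 kb, and the gaps between them measure 29.8, 4.77, 8.62 and 17.6 kb. Because they are copies of each other, it matters how far reads can be assigned to one of them. The 100 coding bases shown next cover the Walker B motif of the first ATP-binding domain. Of the stretches within 1 exon per gene and aligned without gaps in all 5 genes, they are the first in which Abca8a and Abca8b differ least. Capitals mark bases that differ from Abca8a, and each line is read 5′ to 3′ from the minus strand of GRCm38.p6.
Abca8a (chr11:110069414-110069513): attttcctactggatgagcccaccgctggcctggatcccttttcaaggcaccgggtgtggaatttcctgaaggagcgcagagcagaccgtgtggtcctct
Abca8b (chr11:109966720-109966819): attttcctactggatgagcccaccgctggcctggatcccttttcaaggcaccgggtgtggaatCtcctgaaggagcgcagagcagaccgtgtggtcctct
Abca9 (chr11:110144782-110144881): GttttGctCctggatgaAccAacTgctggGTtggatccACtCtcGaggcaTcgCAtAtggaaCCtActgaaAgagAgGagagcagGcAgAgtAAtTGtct
Abca6 (chr11:110218902-110219001): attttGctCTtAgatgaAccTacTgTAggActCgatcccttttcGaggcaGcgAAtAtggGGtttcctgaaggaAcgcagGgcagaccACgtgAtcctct
Abca5 (chr11:110303032-110303131): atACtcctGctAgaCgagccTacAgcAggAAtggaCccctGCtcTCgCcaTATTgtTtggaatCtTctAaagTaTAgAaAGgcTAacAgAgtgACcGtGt

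Here Abca8b differed from Abca8a at 1 base, Abca6 at 23, Abca9 at 29 and Abca5 at 38. Over the whole coding sequence Abca8a and Abca8b were identical at 74.8% of aligned bases, Abca9 at 71% with Abca8a and 71.1% with Abca8b, and Abca6 at 65.9 to 67% with these 3. Abca5 stood farthest off, at 60.6 to 62.2% with each of the others. No stretch of 100 bases of any annotated transcript of the 5 genes occurred exactly in another gene. Stretches with at most 2 differences were found only between Abca8a and Abca8b, at 109 of 4814 aligned positions or 2.26%. A few fragments may therefore have been credited to the wrong one of these 2, and the counting could not be checked for this.

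The region before the start of each gene is printed for the 4 genes that have an entry among the RefSeq promoter sequences for GRCm38.p6. Abca6 has none. Each line holds the bases from 250 to 51 before the start, 5′ to 3′ along the minus strand, where the start is that of RefSeq. For Abca8a and Abca9 it lies downstream of the GENCODE gene boundary given above. The motif GGGCGG (the core of the Sp1 site) or its reverse complement CCGCCC is in capitals.
Abca5 (chr11:110337767-110337966): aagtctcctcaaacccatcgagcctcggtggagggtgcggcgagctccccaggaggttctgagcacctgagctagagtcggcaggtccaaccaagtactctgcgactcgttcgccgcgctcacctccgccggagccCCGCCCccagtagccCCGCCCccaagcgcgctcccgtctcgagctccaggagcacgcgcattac
Abca8a (chr11:110095988-110096187): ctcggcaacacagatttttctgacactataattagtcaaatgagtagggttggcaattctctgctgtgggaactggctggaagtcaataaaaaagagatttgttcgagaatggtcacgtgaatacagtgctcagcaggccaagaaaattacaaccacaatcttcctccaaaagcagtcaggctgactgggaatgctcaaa
Abca8b (chr11:109995896-109996095): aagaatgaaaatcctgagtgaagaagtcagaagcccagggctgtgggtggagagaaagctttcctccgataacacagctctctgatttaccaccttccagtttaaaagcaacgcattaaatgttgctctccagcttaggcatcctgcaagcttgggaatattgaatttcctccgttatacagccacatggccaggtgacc
Abca9 (chr11:110168204-110168403): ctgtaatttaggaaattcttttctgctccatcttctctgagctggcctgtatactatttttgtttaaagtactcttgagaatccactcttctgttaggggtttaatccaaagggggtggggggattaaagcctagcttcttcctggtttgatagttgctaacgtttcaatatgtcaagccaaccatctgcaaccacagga

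The Abca5 window was rich in G and C, at 67.5% with 20 CG dinucleotides, more than in 90.5% of the 32851 mouse promoter windows of the same length. The windows of Abca8a, Abca8b and Abca9 held 43, 46.5 and 41.5% G and C and 3, 3 and 1 CG dinucleotides, where the median window had 51.5% and 4. GGGCGG, on either strand, occurred at 2 places before Abca5 and at none before the other 3, and 24.6% of all windows held it. CTTTGA (a core of Tcf/Lef sites), TATAAA and CCAAT, on either strand and not overlapping GGGCGG, were in none of the 4 windows, against 11.8, 9.14 and 28.4% of all windows. These are matches of letters in a short window and are not binding sites. Whether the windows bear on the levels of the genes was not tested.

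Of the 5 genes, Abca8a differed most between the groups. Its level was 3.81, 5.59 and 5.65 FPKM in Control replicates 0, 1 and 2 and 0.0731, 0.274 and 0.118 in GOF replicates 0, 1 and 2. Every Control library was far above every GOF library. The means were 5.02 ± 1.04 and 0.155 ± 0.105 FPKM (SD, n = 3 each), and the log2 fold change fitted by edgeR was -5.88 (SE 0.25), that is 58.9-fold lower. A pseudocount on FPKM made this smaller, at -2.37 when limma was run on log2(FPKM + 1) and -4.38 with 0.1 added instead. Only 5 of the 15462 genes tested had a lower fitted fold change, so that Abca8a ranked 6 from the bottom.

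The fragments behind the GOF values of Abca8a were few, 20, 17 and 25, against 838, 1502 and 1246 in Control. The 62 GOF fragments have an exact Poisson 95% interval of 47.5 to 79.5, which covers counting error only. The order of the 3 GOF libraries also depended on the unit. GOF replicate 1 had the fewest fragments and the highest FPKM, and its FPKM divided by its CPM (counts scaled to library size) was 0.614, where the other 5 libraries had 0.147 to 0.191. For the other 4 genes the highest and lowest of this ratio differed by 1.06 to 1.20 times. In CPM, which leave out transcript length, Abca8a stood at 30.8 ± 6.43 in Control and 0.520 ± 0.0887 in GOF (SD, n = 3 each). The remaining level was 1.69% of Control in CPM and 3.09% in FPKM.

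Abca9 lies 4.77 kb from Abca8a and came next in size. It measured 2.07, 2.67 and 3.23 FPKM in Control and 0.189, 0.178 and 0.206 in GOF (replicates 0, 1 and 2 in turn, as in all values that follow). The GOF libraries were close together and all under the lowest Control library. The means were 2.66 ± 0.582 and 0.191 ± 0.0141 FPKM (SD, n = 3 each), and the fitted log2 fold change was -3.82 (SE 0.21), or 14.1-fold lower. With limma it was -1.61 after adding 1 to the FPKM and -3.22 after adding 0.1. The fragments numbered 562, 839 and 1015 in Control and 57, 58 and 60 in GOF.

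Abca8b, at the low-coordinate end of the cluster, measured 1.85, 2.26 and 1.95 FPKM in Control and 0.393, 0.345 and 0.749 in GOF. GOF replicate 2 was the highest of its group and still under all of Control. The means were 2.02 ± 0.214 and 0.496 ± 0.221 FPKM (SD, n = 3 each), and the fitted log2 fold change was -2.07 (SE 0.29), or 4.2-fold lower. Although Abca8b is the closest copy of Abca8a, its remaining share of the Control level was larger than that of Abca8a by each unit.

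Abca6 was the least abundant of the 5 in Control on average, with 2.38, 1.19 and 1.38 FPKM there and 0.454, 0.755 and 1.03 in GOF. The highest GOF library, replicate 2, was not far under the lowest Control library, replicate 1, and the groups did not overlap. The means were 1.65 ± 0.640 and 0.747 ± 0.289 FPKM (SD, n = 3 each), and the fitted log2 fold change was -1.12 (SE 0.32), or 2.17-fold lower. The difference was under 2-fold without Control replicate 0 (-0.85), without GOF replicate 0 (-0.89) and with limma on log2(FPKM + 1) (-0.59).

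Abca5, at the other end of the cluster, showed no such difference. It measured 5.59, 8.55 and 8.37 FPKM in Control and 9.12, 5.81 and 6.25 in GOF, and the groups overlapped, with the lowest library in Control and the highest in GOF. The means were 7.5 ± 1.66 and 7.06 ± 1.80 FPKM (SD, n = 3 each) and the log2 fold change was -0.04 (SE 0.28). Its sign was not fixed: over the alternatives the value lay between -0.34 and 0.18. The fragments were many, 1231 to 2822 a library, so depth did not limit this value.

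Every GOF library was thus below every Control library for 4 of the 5 genes, as it was for 19.2% of all genes tested. The same 4 had a fitted log2 fold change below -1, as had 7.19% of all genes. The median of the 5 genes was -2.07 and that of all genes -0.02. Since the set was chosen on this contrast, nothing is read from these counts. In the test across the table edgeR called 12.3% of all genes (fold change over 2 with an adjusted p under 0.05), 6.69% higher and 5.64% lower in GOF. The plot of FPKM by library shows the 5 genes in chromosomal order.

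**Figure D1:**
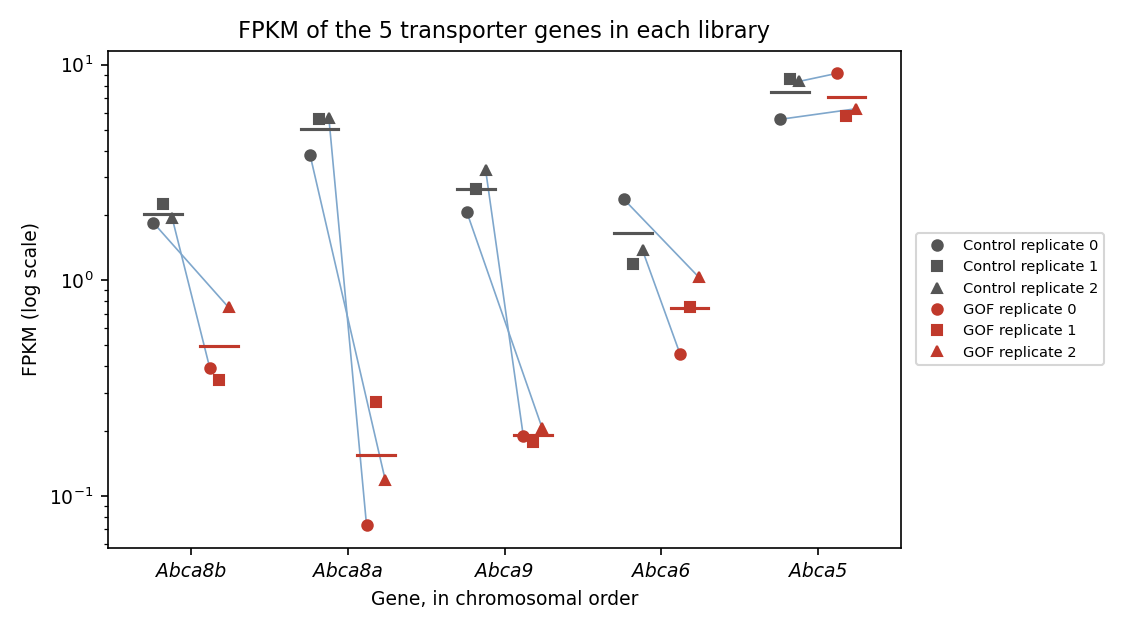
FPKM (log axis) of each gene in the 3 Control (grey) and 3 GOF (red) libraries, with short bars at the group means and thin blue lines joining the cultures of the same mouse. The GOF points lie below all Control points for Abca8b, Abca8a, Abca9 and Abca6, with Abca8a at 0.0731 to 0.274 FPKM, and mix with them for Abca5.

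The mice that gave a culture to each group showed the same order of sizes. In log2 CPM, GOF minus Control was -5.95 for Abca8a in mouse 9845 and -5.31 in mouse 9852. For Abca9 it was -4.14 and -3.47, for Abca8b -2.31 and -1.38, and for Abca6 -1.51 and -1.16 in the same mice. Abca5 differed by 0.21 and 0.16 there, slightly up in both. Each is a single pair of libraries.

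The order of levels within the cluster was therefore different in the groups. In Control the means ran Abca5, Abca8a, Abca9, Abca8b and Abca6 from high to low. Across libraries the values of Abca5 and Abca8a overlapped, the lowest Abca5 value of 5.59 FPKM lying under the highest Abca8a value of 5.65. So did those of Abca9 and Abca8b and those of Abca8b and Abca6. Within every Control library, though, Abca5 was above Abca8a and Abca9 above Abca8b, while Abca6 was above Abca8b only in Control replicate 0. Abca8a and Abca9 were apart, at 3.81 or more against 3.23 or less. In GOF the order was Abca5, Abca6, Abca8b, Abca9 and Abca8a. There the values of Abca6 and Abca8b overlapped across libraries, with Abca6 the higher within each. Abca9 overlapped Abca8a in FPKM through GOF replicate 1 alone, the library in which the FPKM of Abca8a was out of step with its fragments. Abca9, at 0.206 FPKM or less, was under the lowest Abca8b value of 0.345.

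Added up, the 5 genes gave 15.7, 20.3 and 20.6 FPKM in Control and 10.2, 7.37 and 8.35 in GOF, with means of 18.9 ± 2.73 and 8.65 ± 1.46 (SD, n = 3 each). Abca5 made up 39.5 ± 3.48% of the sum in Control and 81.0 ± 7.40% in GOF. The share of Abca8a was 26.4 ± 1.86% and 1.95 ± 1.57%, and that of Abca9 14 ± 1.46% and 2.25 ± 0.345%. Abca8b held 10.8 ± 1.20% and 5.83 ± 2.75%, and Abca6 held 9.25 ± 5.15% and 9.02 ± 4.10% (SD, n = 3 each). The stacked plot of summed FPKM shows that what was left in GOF was mostly Abca5.

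**Figure D2:**
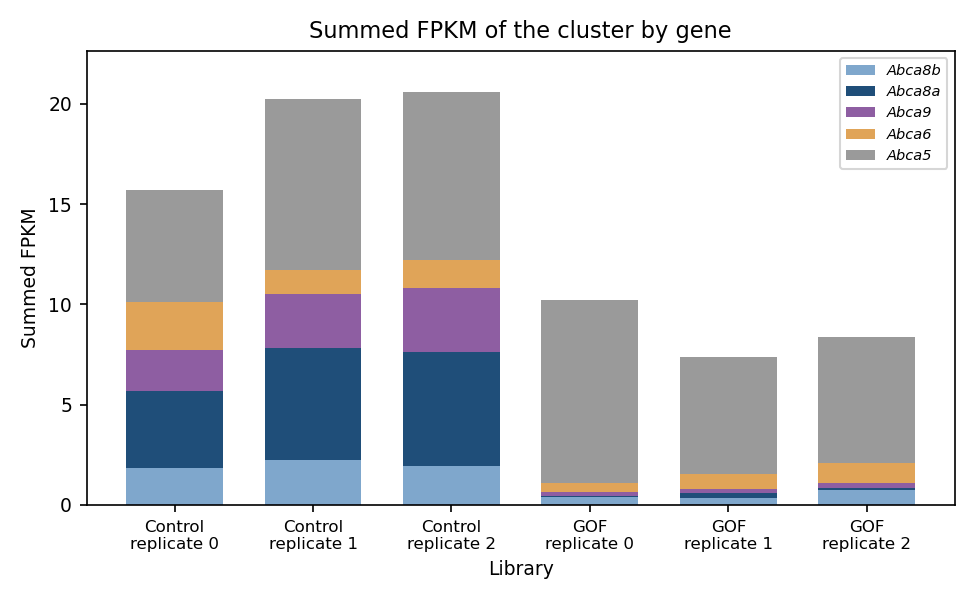
Summed FPKM of the 5 genes (bar height, linear axis from 0) in each of the 6 libraries, stacked by gene. The Control bars reach 15.7 to 20.6 and the GOF bars 7.37 to 10.2, and the Abca5 block fills 81.0% of the GOF bars on average.

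Among genes with a mean of at least 1 FPKM, the 5 whose log2(FPKM + 1) followed the summed level of the cluster most closely over the 6 libraries were 2810032G03Rik (Pearson r = 0.997), Sardhos (0.997), Arhgap28 (0.995), Unk (0.994) and Wnt16 (0.994). The libraries fall into 2 groups and these genes were picked as the highest of 12236, so the correlations are a description. Wnt16, a secreted Wnt ligand, measured 8.59 ± 2.28 FPKM in Control and 1.49 ± 0.428 in GOF (SD, n = 3 each). Arhgap28 measured 9.23 ± 2.33 and 2.94 ± 0.688. The RNA-binding protein gene Unk differed least of them, at 3.61 ± 0.253 and 2.61 ± 0.250 FPKM, and was not called (edgeR, adjusted p = 0.0736). The non-coding RNAs 2810032G03Rik and Sardhos were 2.48 and 3.36-fold lower in GOF by the edgeR fit, Sardhos on 4 to 25 fragments a library and with its call lost under 6 of 14 alternatives.

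The chromosome around the cluster was examined to see how far the difference reached. The all-gene table held 14 protein-coding genes outside the cluster that lay wholly within 1 Mb on either side, and 10 of them passed the filter. Of these Kcnj2 was called higher, none was called lower, and the median log2 fold change of the 10 was -0.08. Axin2, which ends 981 kb before the cluster and crosses the edge of this window, rose as well (log2 fold change 6.98, edgeR adjusted p = 4.9e-05). Counting it gave 11 tested genes, of which 2 were called higher and 0 lower, with a median of 0.12. Of all genes tested, 12.3% were called. Under the 2-fold threshold, Amz2 was lower (-0.53, edgeR adjusted p = 0.0186) and Slc16a6 higher (0.81, edgeR adjusted p = 0.0499). Over the alternatives their adjusted p rose as high as 0.116 and 0.176.

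On the Abca5 side the nearest tested gene, 61.4 kb away, was Map2k6, a kinase that activates p38. It measured 1.11 ± 0.143 FPKM in Control and 0.836 ± 0.139 in GOF (SD, n = 3 each), and its log2 fold change of -0.43 was not called (edgeR, adjusted p = 0.271). Kcnj16 had no fragments in any library. Kcnj2, an inward-rectifier potassium channel gene 728 kb away, measured 0.477, 1.1 and 1.59 FPKM in Control and 18.1, 21.5 and 9.78 in GOF. Its groups were wide apart, and its log2 fold change was 4.0 (SE 0.50, 16.1-fold higher, edgeR adjusted p = 0.00199). Over the alternatives it stayed called, with log2 fold changes of 3.06 to 4.44. Within the mice with both cultures it was higher by 3.55 and 4.22 in log2 CPM.

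On the Abca8b side the 3 nearest tested genes were Fam20a, Prkar1a and Wipi1, at 210, 263 and 320 kb. Fam20a, a pseudokinase needed for enamel, had a log2 fold change of -0.39 (edgeR, adjusted p = 0.234). Prkar1a, a regulatory subunit of protein kinase A, had one of -0.28 (edgeR, adjusted p = 0.200), and Wipi1, an autophagy protein, 0.29 (edgeR, adjusted p = 0.101). None of the 3 was called. Farther out, Rgs9, a regulator of G-protein signalling at a low level, was not called in the full data (1.25, edgeR adjusted p = 0.0668) and was called without GOF replicate 1 (1.5, adjusted p = 0.0499).

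Non-coding genes of the same stretch had few fragments. Of 16 in the all-gene table, only 1 passed the filter, and of 10 in the separate lncRNA table, where edgeR called 9.36% of 1389 genes, 2 did. Neither Gm11696 (log2 fold change 0.04, edgeR adjusted p = 0.952) nor Gm15642 (-0.80, adjusted p = 0.284) was called in the lncRNA table. That count of 0 was also 0 at an unadjusted p under 0.05 and with DESeq2 and limma. The antisense gene Gm11697, which lies inside Abca8b, had 2, 0 and 3 fragments in Control and 0, 0 and 0 in GOF, too few for a fold change. Whether the counting used the strand is not stated, so its reads and those of Abca8b cannot be told apart. The plot of fold change against position sets the neighbours beside the cluster.

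**Figure D3:**
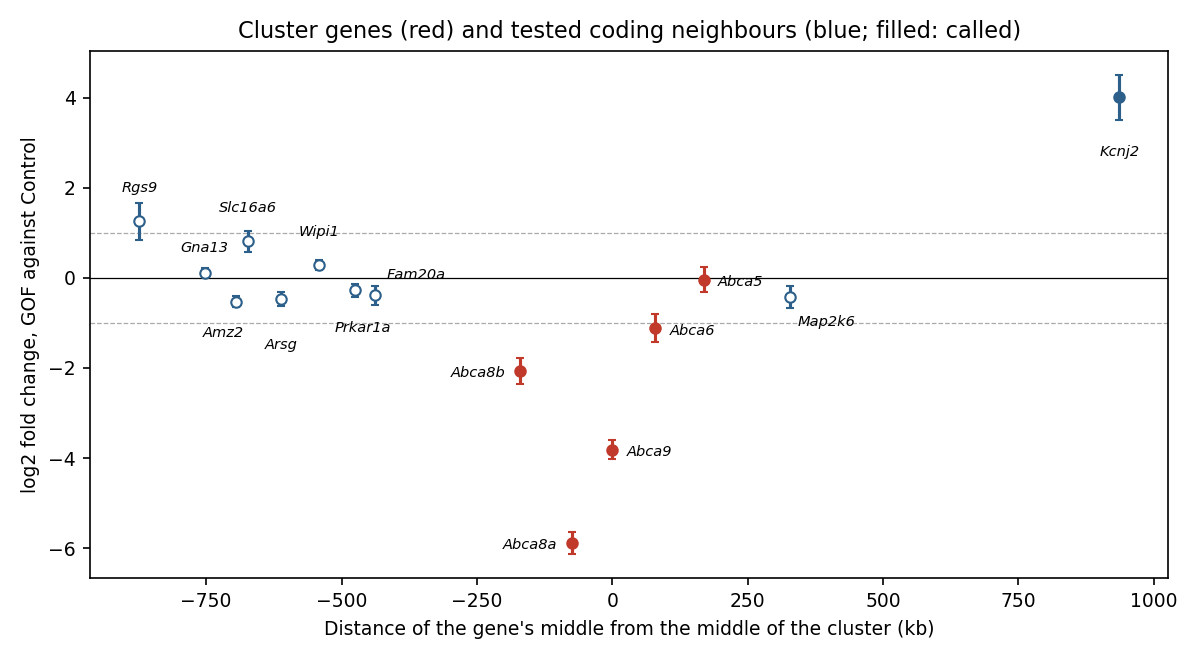
Fitted log2 fold change of GOF against Control (bars, SE) for the 5 cluster genes (red) and the 10 tested coding neighbours wholly within 1 Mb (blue, filled where called), against the distance of each gene's middle from the middle of the cluster in kb. Abca8a lies at -5.88 and Kcnj2 at 4.0, Abca5 and Map2k6 lie at -0.04 and -0.43, and dashed lines mark a fold change of 2 in each direction.

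Elsewhere in the genome there are 11 other A-class genes, and 6 of them passed the filter. Abca1, the cholesterol exporter, was the most abundant, at 16.1, 42.5 and 49.0 FPKM in Control and 24.3, 25.7 and 21.6 in GOF. Control replicate 0 was the lowest of all 6 libraries, the groups overlapped, and the log2 fold change of -0.59 (SE 0.36) was not called (edgeR, adjusted p = 0.289). Without Control replicate 0 it was -0.94 (edgeR, adjusted p = 0.00692), still under a 2-fold difference, so the result for Abca1 depended on that library. Abca3 (0.61, adjusted p = 0.165), Abca7, a phospholipid transporter (0.19, adjusted p = 0.380), Abca2, found in lysosomes (0.11, adjusted p = 0.786) and Abca4 (-0.15, adjusted p = 0.863) were not called by edgeR either. Abca13 was the exception and rose, from 3, 2 and 0 fragments in Control to 28, 12 and 19 in GOF (edgeR, adjusted p = 0.0147). After scaling to library size, this was a ratio of 11.4 in summed fragments. Its exact 95% interval of 4.63 to 36.5 covers counting error only. The level in GOF was only 0.0244 ± 0.00947 FPKM (SD, n = 3). Abca13 was not called with limma, without Control replicate 1 (edgeR, adjusted p = 0.0595) or without GOF replicate 0 (edgeR, adjusted p = 0.0625). The others, Abca12 and Abca14 to Abca17, had too few fragments for a test.

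Of 35 ABC genes of classes B to G, 25 were tested, and 2 were called higher while none was called lower, beside 12.3% called among all genes. Abcc9 was called lower without Control replicate 0 (-1.16) and Abcg2 without Control replicate 2 (-1.02). Abcb1b was not called in the full data (1.34, edgeR adjusted p = 0.0521). It was called higher with DESeq2, with no filter, with a block by animal and without GOF replicate 1. Abcg1, which passes cholesterol to high-density lipoprotein, measured 4.41, 4.79 and 5.62 FPKM in Control and 14.9, 16.1 and 9.39 in GOF, with a log2 fold change of 1.42 (SE 0.20, edgeR adjusted p = 0.00307). Abcb1a, a multidrug exporter, measured 0.0929, 0.0559 and 0.185 FPKM in Control and 0.475, 0.681 and 0.642 in GOF, with one of 2.73 (edgeR, adjusted p = 0.00317). A further 6 genes had an adjusted p under 0.05 with less than a 2-fold difference, the farthest being Abcc1 at 0.93 and Abcg2 at -0.92, both drug exporters. The median of the 25 was 0.19. In the full data no tested ABC gene outside the cluster had a fitted log2 fold change below -0.92. Inside it 4 of the 5 did, as the plot of all tested ABC genes shows, and 7.19% of all genes tested lay below -1. Without Control replicate 0 this split was lost, with Abca6 at -0.85, Abca1 at -0.94 and Abcc9 at -1.16. The values of the 4 cluster genes were part of what the set was chosen on.

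**Figure D4:**
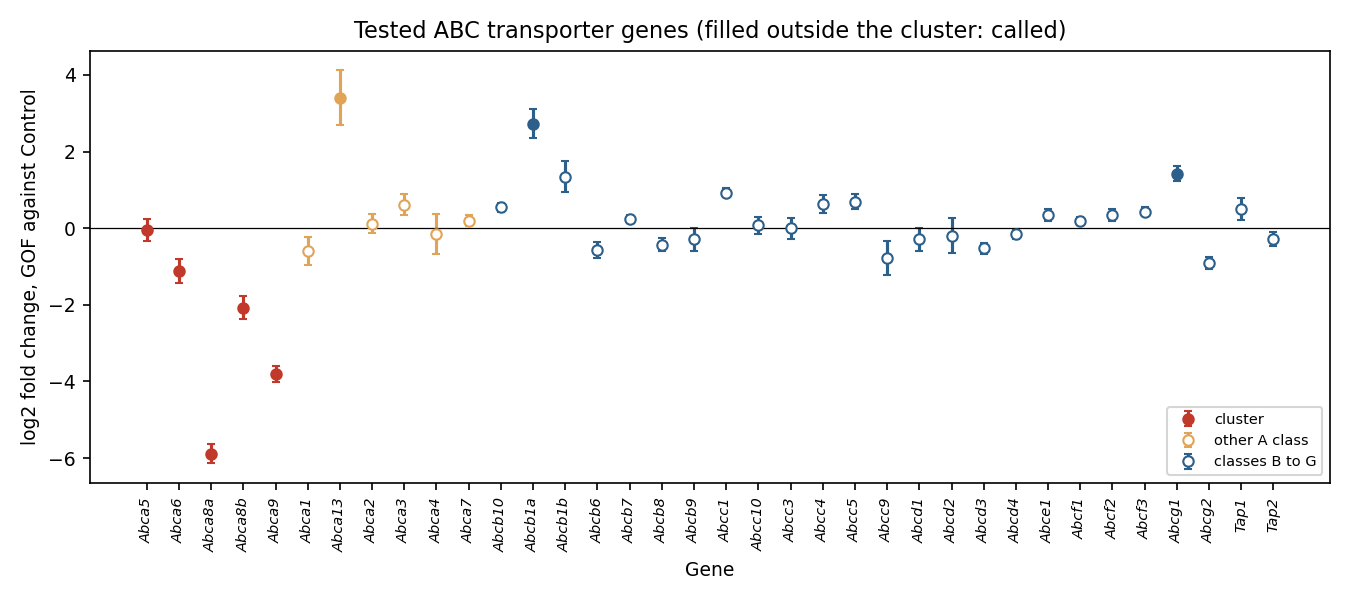
Fitted log2 fold change of GOF against Control (bars, SE) for every tested ABC gene, with the 5 cluster genes in red, 6 other A-class genes in orange and 25 genes of classes B to G in blue. Outside the cluster filled points mark called genes, Abca13, Abcb1a and Abcg1, all higher, and the lowest is Abcg2 at -0.92.

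Several sterol transporters answer to the liver X receptors (LXR), nuclear receptors that sense oxidized cholesterol, so their partners and targets were read alongside. Of 13 genes on this list, which shares Abca1 and Abcg1 with the lists above, 13 were tested, 1 rose and 4 fell, where 6.69% of all genes were called higher and 5.64% lower. Abcg1 was the one that rose. Apoe, the lipid-carrying apolipoprotein, fell from 20.9 ± 11.1 to 2.82 ± 1.43 FPKM (SD, n = 3 each), with a log2 fold change of -3.07 (edgeR, adjusted p = 0.00879). Mylip, the ubiquitin ligase that degrades the LDL receptor, fell (-1.72, edgeR adjusted p = 0.0039), as did Smpdl3a, a secreted phosphodiesterase (-1.11, edgeR adjusted p = 0.00109). The receptor gene Nr1h3 (LXRα) fell as well (-1.06, edgeR adjusted p = 0.0420), a call that was lost under 8 of 14 alternatives, without any of 5 of the 6 libraries among them. Targets on the list thus moved in both directions, and the median of the 13 was -0.51.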

How the data were processed

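The authors made stranded libraries, sequenced read pairs and aligned them to mm10 with TopHat before running Cuffdiff. The deposited tables, for all genes and for lncRNAs, hold for each gene and library the estimated count of fragments before scaling and the FPKM value that Cuffdiff scaled by transcript length and library. Whether the strand was used in counting is not given in the sources used here. A further 6 per-library columns were not used, and 32 genes with a failed estimate were left out. GENCODE M21, on the GRCm38 assembly, matched 97.9% and 96.4% of the identifiers.

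Estimated counts, not whole in 4.95% and 0.634% of values, were rounded and passed to edgeR 4.0.16 in R 4.3.3 (TMM, filterByExpr, quasi-likelihood test, Benjamini-Hochberg adjustment). A called gene had a fold change over 2 with an adjusted p under 0.05. The steps were tested on simulated data. Alternatives were DESeq2 1.42.0, library totals, no filter, a minimum FPKM of 1 in 3 libraries, limma 3.58.1 on log2(FPKM + 1) and log2(FPKM + 0.1), blocks by label number or animal, and each library left out.

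The 5 genes, the lists and the rule for named genes were chosen with earlier results of these data known. The rule names all 5 cluster genes, the 3 nearest tested coding neighbours on each side and every called one, all tested A-class genes, up to 5 called genes of each other list, the 5 genes most like the summed cluster, Ctnnb1 and Axin2. Map2k6 and Kcnj2 were the only tested neighbours on the Abca5 side. Amz2, Slc16a6, Rgs9, Kcnj16, Gm11697, Abcb1b, Abcc1, Abcc9, Abcg2 and the marker genes were named after their values were seen. Coding sequences were aligned with Biopython 1.88. Deviations from the group means correlated within the mice that gave both cultures (r = 0.508 and 0.415), so the mouse pairs these samples. The main edgeR fit, which gave the p-values in the Results, left this pairing out.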

Additional observations from a re-analysis of the deposited data

How the results depend on the processing

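The counts of calls and the fold changes of the genes named by rule were recomputed under 14 alternatives, or 13 where a gene did not pass a filter, and among these no called gene changed direction. Shares and levels per library were not recomputed. The median log2 fold change of the 5 cluster genes, -2.07, was -1.02 with limma on log2(FPKM + 1), which compresses low levels, and -2.48 to -1.87 with 1 library left out. With limma on log2(FPKM + 1) 877 genes of the table were called in place of 1906, and 1311 to 1961 with 1 library left out. Of the other A-class genes 0 were called with the minimum FPKM of 1 and with limma at either pseudocount, and 0 to 1 with 1 library left out (0 without Control replicate 1 or GOF replicate 0). Of classes B to G, 4 were called with no filter, and 1 each with the minimum FPKM of 1 and with limma on log2(FPKM + 1). The coding neighbours wholly within 1 Mb that were called numbered 1 to 2 with 1 library left out, 2 only without GOF replicate 1.

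Label numbers did not pair the samples: deviations of same-numbered libraries correlated at -0.456, 0.0305 and -0.473. A replicate block by number called 1421 genes and gave a cluster median of -2.14. The replicate block by animal, with 1 residual degree of freedom, called 2008 genes and gave -1.83. Under it Sardhos and the marker Col1a2 lost their calls (adjusted p = 0.0878 and 0.0186, the latter with a log2 fold change of -0.88). Lum (-2.42) and Pdgfra (-1.18) were called lower there, and Abcb1b (1.44) and Myh11 (1.34) higher. Abca3 had a smaller adjusted p there, 0.0232 at 0.96, and stayed under the 2-fold threshold.

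Depth limits Abca8a in GOF, with 17 to 25 fragments a library, and Abca13. With 3 libraries a group and 4 mice, and with the virus tied to the group, the values describe these cultures.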
